A study of Homo sapiens with 12 samples.

Results

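The integrated stress response genes examined here are 10 genes of 1 signalling route, among 19974 protein-coding genes on chromosomes 1 to 22 and X. They are the kinases EIF2AK1, EIF2AK2, EIF2AK3 and EIF2AK4, the transcription factors ATF4 and DDIT3, and PPP1R15A, TRIB3, CHAC1 and SESN2. They were chosen by name, with earlier results of these data known. For each gene, every ATAC-seq peak that overlapped its RefSeq span (GRCh38) extended by 5 kb on both sides was taken. ATAC-seq maps open chromatin by the insertions of the Tn5 transposase. The cells were MIAPaCa2, an established pancreatic ductal adenocarcinoma line, either parental or resistant to the lactate dehydrogenase A inhibitor sodium oxamate, and each was left untreated or treated with the inhibitor. The resistant cells were polyclonal survivors of continuous oxamate culture of the same line, so they stand for 1 selection, and the untreated cells received buffer. Each of the 4 groups had 3 libraries, and no source says whether these came from separate cultures, so the p-values measure the spread between libraries, which may be technical.

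In this pathway, stress-sensing kinases phosphorylate the translation initiation factor eIF2, which slows general protein synthesis while ATF4 mRNA is translated more. ATF4 then acts with partners such as DDIT3 (CHOP) on genes for amino acid supply, redox balance and cell death. EIF2AK1 (HRI) responds to lack of heme and to mitochondrial stress, EIF2AK2 (PKR) to double-stranded RNA, EIF2AK3 (PERK) to unfolded proteins in the endoplasmic reticulum, and EIF2AK4 (GCN2) to lack of amino acids. Much of this control is at the level of translation, which ATAC-seq does not measure.

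Each library came as its own list of broad peaks with no read counts, so a locus was described by the bases its peaks cover, the position of each peak, and the fold over background that the authors gave it. The lists held 45748 to 62414 peaks on these chromosomes. Covered bases, fragment size and depth were not alike between the cell types. Peaks covered 13.8 to 25.5 Mb in the 6 parental libraries and 21.3 to 33.7 Mb in the 6 resistant libraries. The smallest peak width, which follows the fragment length, was 67 to 87 bp in parental and 94 to 124 bp in resistant libraries, and relative depth (shallowest library at 1) was 1.33 to 2.77 in parental and 1 to 1.85 in resistant libraries. Phenotype and fragment length cannot be told apart here, and every difference between resistant and parental cells is therefore given beside the same measure over all genes. Of the genes that mark the line, VIM had a peak at its start in 12 libraries and KRT8 in 9, while PTPRC and ALB, which mark blood and liver cells, had one in 0. The other 5 markers looked up had no promoter window, and of those that mark other cell types PECAM1 had 460 bp covered at its locus in parental and 1018 bp in resistant cells (exact permutation p = 0.03, adjusted p = 0.0828) and COL1A1 had 671 and 824 bp, while CD3E had peaks in too few libraries to be tested.

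All 10 loci held peaks in every library. The 12 lists had 331 peaks in the 10 windows, 23 to 30 per library, and merged peaks gave 62 regions. Of these, 15 regions (24.2%) were called in 12 libraries, against 13.6% of all 178040 regions, and 27 were called in 1 library. The start of a gene was taken from RefSeq promoter windows of 250 bases before and 50 after the start, which were at hand for 9 of the members; EIF2AK1 is described by its span only. With the windows extended by 500 bases, 9 of 9 members had a start peak in 12 libraries, as did 57.5% of 15812 genes. A peak thus lay at or near these starts in parental and resistant cells, with or without oxamate. Without the extension, ATF4 had no start peak in the first treated parental library and TRIB3 none in the third untreated parental library.

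The promoters of CHAC1 and ATF4 are shown. CHAC1, a target of ATF4, was the 1 member whose promoter window held the C/EBP-ATF response element, and ATF4 is the factor itself. The sequences are the 250 bases before the start, from RefSeq (GRCh38.p14), plus strand, at chr15:40953221-40953470 and chr22:39520309-39520558. Capitals mark a match to the C/EBP-ATF response element in CHAC1 (TGATGNAA, here on the minus strand, bases -209 to -202 from the start) and to the E-box in ATF4 (CACGTG, bases -82 to -77).
CHAC1: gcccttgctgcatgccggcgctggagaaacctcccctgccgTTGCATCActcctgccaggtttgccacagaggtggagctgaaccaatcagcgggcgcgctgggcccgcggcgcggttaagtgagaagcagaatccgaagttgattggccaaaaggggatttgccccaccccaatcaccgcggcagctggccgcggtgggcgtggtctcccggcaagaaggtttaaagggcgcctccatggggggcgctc
ATF4: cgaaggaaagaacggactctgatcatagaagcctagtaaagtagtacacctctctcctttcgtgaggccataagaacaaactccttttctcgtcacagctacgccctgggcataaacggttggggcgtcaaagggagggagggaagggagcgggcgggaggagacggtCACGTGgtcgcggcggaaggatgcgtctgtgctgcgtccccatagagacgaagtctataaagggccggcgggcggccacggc
Searched on both strands of the 300-base windows, the C/EBP-ATF element was found in 1 member, CHAC1, and in 3.6% of 15812 genes. The E-box was found in ATF4 and EIF2AK2 and in 10.9% of genes, and the endoplasmic reticulum stress element in 0 members and 0.133% of genes. These are matches of letters, not measured binding. Peaks covered all 250 printed bases of CHAC1 in 10 libraries and at least 223 in the others. In ATF4 they covered all 250 in 7 libraries and 0 in the lowest.

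TRIB3 and CHAC1 were the 2 of 9 members whose start peak had a higher fold over background in resistant cells at an unadjusted exact permutation p under 0.05. Over all genes this share was 31.5%. The mean fold was lower in resistant cells at SESN2 (8.79 in parental and 7.82 in resistant libraries), EIF2AK2, EIF2AK3 and DDIT3. None of these lower values passed that threshold. TRIB3 (chr20:380760-397559) encodes a pseudokinase that binds AKT and ATF4, and CHAC1 (chr15:40953471-40956512) encodes an enzyme that degrades glutathione. This measure, the authors' fold of the strongest start peak, was chosen after the values at these loci had been seen, and it is 1 of 3 taken from the same peaks. At TRIB3 it was 6.99, 6.65 and 5.24 in untreated parental, 5.49, 4.37 and 4.35 in treated parental, 8.60, 8.07 and 9.81 in untreated resistant and 9.14, 7.62 and 9.47 in treated resistant libraries. All 6 resistant libraries lay above all 6 parental ones, which was so for this 1 of 9 members and for 3.06% of the 9098 genes with a start peak in 12 libraries. The reverse order was found in 0 members and 0.561% of genes. The means were 5.52 ± 1.11 in parental and 8.79 ± 0.843 in resistant cells (SD, n = 6 each). The difference of 3.27 lay at the 99.5th percentile of all genes and had an exact permutation p = 0.005, the smallest the design gives, with a Benjamini-Hochberg adjusted p = 0.0706 over all genes. No gene reached an adjusted p under 0.05 on this measure, since the lowest was 0.0706.

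At CHAC1 the start peak had a fold of 7.10, 8.50 and 7.91 in untreated parental and 4.37, 5.63 and 5.74 in treated parental libraries. In resistant cells it was 8.71, 8.44 and 10.1 untreated and 9.88, 8.09 and 9.20 treated. The treated parental libraries were the 3 lowest of the 12, and the untreated parental and resistant ranges overlapped. The resistant mean of 9.07 ± 0.811 stood 2.53 above the parental mean of 6.54 ± 1.56 (SD, n = 6 each; exact permutation p = 0.01, adjusted p = 0.0751, 97.4th percentile). At an unadjusted p under 0.05, 2 of 9 members were higher in resistant cells and 0 lower, against 31.5% and 3.91% of all genes. In the windows without extension TRIB3 was not among the genes tested, and CHAC1 was the 1 member higher. The median fold over all start peaks was itself 6.38 in parental and 7.08 in resistant cells. With each fold divided by its library's median and multiplied by the median over all libraries, the differences were 2.51 at TRIB3 and 1.73 at CHAC1, each with an exact permutation p = 0.005 and adjusted p = 0.0546.

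**Figure D1:**
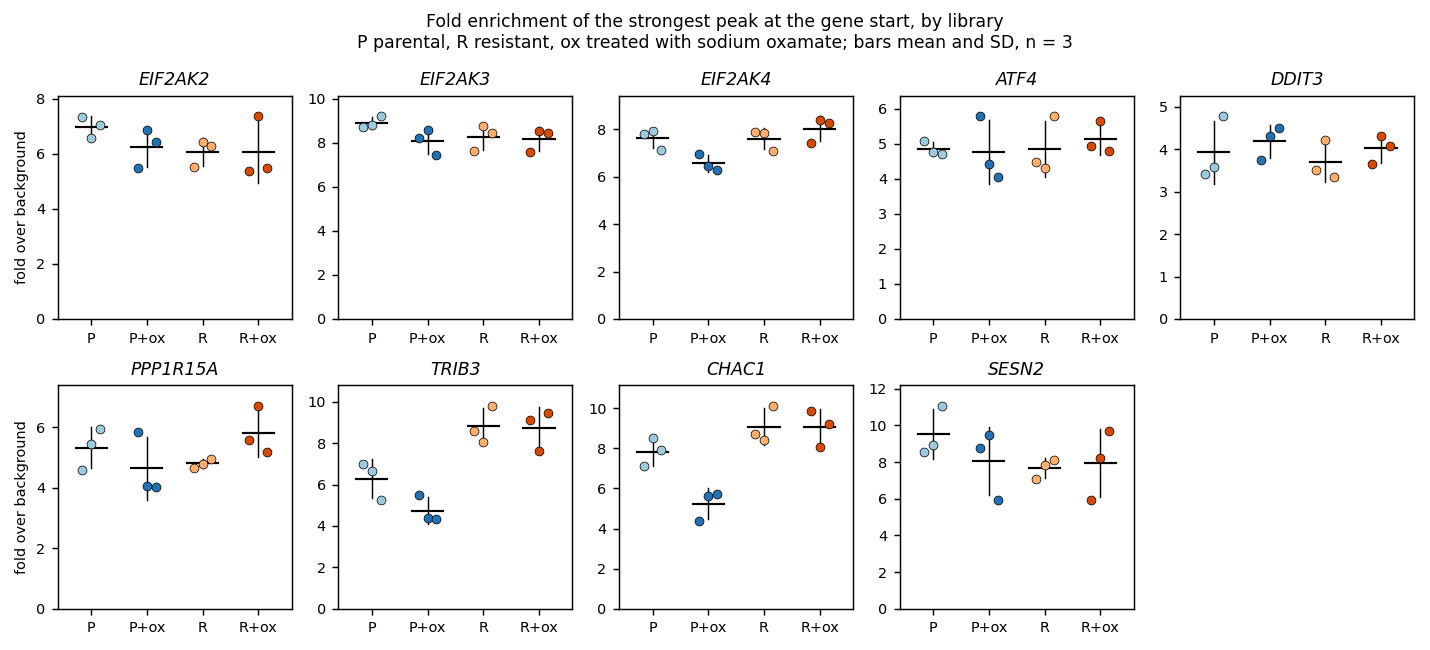
Fold over background of the strongest start peak for the 9 members with a start window, 1 point per library, with the mean and SD of each group (n = 3); the vertical axes start at 0. TRIB3 is 8.07 to 9.81 in untreated resistant against 5.24 to 6.99 in untreated parental libraries, while ATF4 and DDIT3 overlap between the cell types.

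The -log10 q of the start peak, a measure also added after values were seen, ordered the members otherwise. It was higher in resistant cells at an adjusted exact permutation p under 0.05 in 7 of 9 members, all but SESN2 and EIF2AK2, against 82.1% of genes, and lower in 0, against 0.055%. EIF2AK3 stood highest among the members, at 35.4 in parental and 60.04 in resistant cells (95.9th percentile of the difference over all genes). CHAC1 had 11.2 and 30.2 (percentile 88.6) and TRIB3 7.38 and 25.8 (percentile 87.3). The median over all genes was 12.0 and 21.3.

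Within a list, peaks can also be ranked by their -log10 q. Here the rank is the percentage of peaks that are stronger, so a low value is a strong peak. The TRIB3 start peak ranked at 15.5%, 21.98% and 26.7% in untreated parental and 27.0%, 30.3% and 27.7% in treated parental libraries. It ranked at 7.82%, 8.11% and 6.90% in untreated resistant and 7.88%, 15.9% and 7.70% in treated resistant libraries. Only the second treated resistant library reached the parental range. The CHAC1 start peak ranked at 11.9%, 9.70% and 10.2% in untreated and 42.8%, 18.6% and 16.5% in treated parental libraries. It ranked at 6.41%, 6.67% and 5.47% in untreated and 4.58%, 9.55% and 6.41% in treated resistant libraries. All resistant libraries had a stronger rank than all parental ones at CHAC1, as was so for 2.66% of genes, and the reverse held for 0 members and 0.78% of genes. The rank moved by -15.8 points at TRIB3 and by -11.8 points at CHAC1, each with an exact permutation p = 0.005 and an adjusted p = 0.0657, the lowest over all genes. The ranks come from the same peaks as the fold and from lists of 45748 to 62414 peaks that also differ in fragment size and depth, so they are no separate support for it. Without the first treated parental library the CHAC1 value was -7.59. EIF2AK3 also had a stronger rank in resistant cells (-0.58 points, exact permutation p = 0.025, adjusted p = 0.122), so 3 of 9 members passed the unadjusted threshold, against 22% of genes, and 0 were weaker, against 5.22%. This count was 5 without the first treated parental or the second untreated resistant library, and the share of all genes was not counted there.

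Weak peaks lay along TRIB3. The 12 peaks at its start formed a region at chr20:380576-381154, across the lower end of its span and -766 to -188 bases from the start in the promoter table. Inside the gene, at chr20:390585-391528, a region centred 9714 bases after that start was called in 3 libraries of untreated and 2 of treated resistant cells. Among parental libraries, it was called in 1 treated and in 0 untreated. Its width was 944, 363 and 497 bp in untreated resistant and 594, 0 and 276 bp in treated resistant libraries, and 95 bp in the 1 parental library. By Fisher's exact test of 5 against 1 library of 6 it had p = 0.0801 and an adjusted p = 0.426, and of 9507 regions tested 0 were called (0.0%), with 8.71% more frequent in resistant and 2.7% in parental cells at an unadjusted p under 0.05. It was the only member region in the range that could be tested (called in 5 to 7 libraries). Peaks inside TRIB3 covered on average 15.8 bp in parental and 527 bp in resistant libraries, and those at its higher end 12.7 and 261 bp. All of these peaks were near the lower limit of the lists, with a -log10 q of 1.06 to 2.14 and a rank of 75.03% to 98.96%, and none remained at a -log10 q of 3 or more. At its start the averages were 521 and 669 bp. These include a second, weaker region (chr20:381663-382349), called in 2 parental and 2 resistant libraries with a -log10 q of 1.345 to 2.873. In the flank the averages were 522 and 619 bp. A region called in 12 libraries lay in that flank, at chr20:401769-402509.

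CHAC1 had 1 region in 12 libraries, its start (chr15:40952690-40953705), which made up 90.3% of its covered bases. A region at chr15:40960787-40961205, after the gene, was called in 0 parental libraries, 1 library of untreated resistant cells and 2 of treated ones. This was too few to be tested, and the share of all regions with such a split was not counted. These peaks were near the lower limit of the lists, with a -log10 q of 1.051 to 1.518 and a rank of 89.14% to 99.74%. DDIT3 (chr12:57516588-57520517) had 3 regions. Its start region and that of its neighbour MBD6 were called in 12 libraries, and a region over the end it shares with MARS1 (chr12:57514769-57516724) in 3 untreated parental, 1 treated parental, 3 untreated resistant and 3 treated resistant libraries. The MBD6 start made up 37.6% of the bases covered in the DDIT3 window, and the MARS1 and DDIT3 spans share 65 bp, so these values are not of DDIT3 alone.

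**Figure D2:**
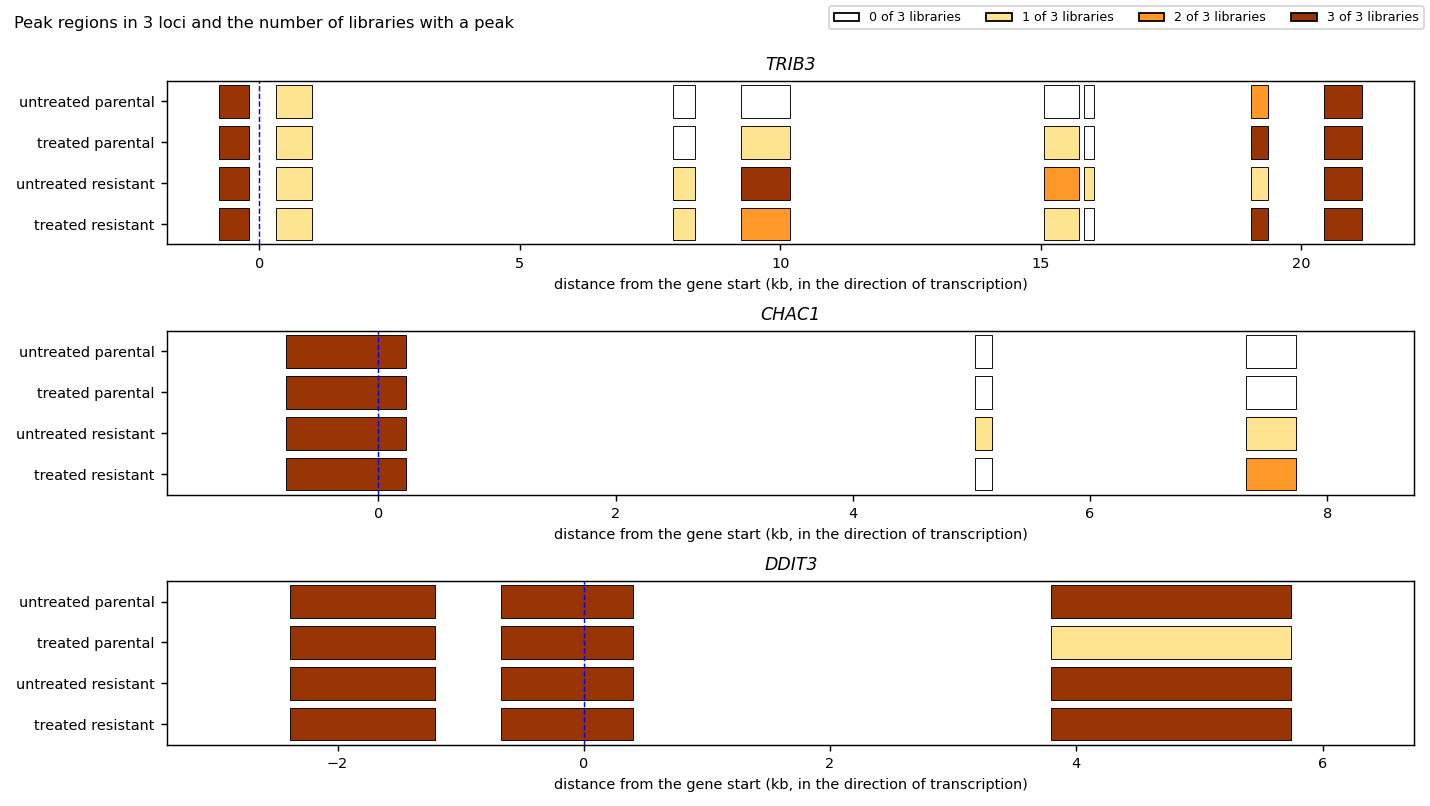
Peak regions in the TRIB3, CHAC1 and DDIT3 windows, by distance from the gene start in kb, with 1 row per group and colour for the number of its 3 libraries with a peak. The TRIB3 region at about 9.7 kb is filled in 5 resistant libraries and in 1 parental library. A start region of each gene is filled in all libraries, while a second, weaker region near the TRIB3 start is filled in 4.

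The start peak was called wider in resistant cells (adjusted exact permutation p under 0.05) at 2 of 9 members, EIF2AK2 and TRIB3, against 22.6% of 10007 genes. The mean width was higher in resistant cells at all 9, by 91.67 bp (CHAC1) to 435 bp (EIF2AK4), and the median difference over all genes was 210.7 bp. EIF2AK2 (chr2:37099210-37156980) had 94.1% of its covered bases in this 1 peak. Its width was 587, 954 and 824 bp in untreated parental, 395, 159 and 188 bp in treated parental, 992, 1097 and 932 bp in untreated resistant and 973, 648 and 973 bp in treated resistant libraries. The treated parental libraries were the lowest and did not overlap any other group. The mean was 518 bp in parental and 936 bp in resistant libraries, a difference of 418 bp (exact permutation p = 0.01, adjusted p = 0.0442). The peak was wider but no higher: its fold was 6.61 ± 0.648 in parental and 6.07 ± 0.777 in resistant libraries (SD, n = 6 each; exact permutation p = 0.225). Divided by the smallest width of its list, the width difference became 209 bp with an adjusted exact permutation p = 0.268, and so it was not called once fragment size was taken into account in this way. At TRIB3 the start width averaged 393 bp in parental and 533 bp in resistant libraries (adjusted exact permutation p = 0.0442). The third untreated parental library was listed at 0 there because its peak ends before the window, and with the window extended by 500 bases the adjusted exact permutation p was 0.308. With 1 library left out, each of these calls held in 2 of 12 cases, EIF2AK2 without the second untreated parental or the second treated resistant library and TRIB3 without the first or second untreated parental library.

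Summed over a whole locus, covered bases of the 10 members moved with those of all genes. The median log2 of resistant over parental was 0.37 for the members and 0.38 for all 16974 genes tested. By the adjusted exact permutation test 0 of 10 members passed, against 11.8% of genes higher and 0.0295% lower in resistant cells, and the lowest adjusted p of a member was 0.0527. Without the second untreated resistant library 3 members passed (EIF2AK2, CHAC1 and TRIB3), while the genes called over the whole series went from 2013 to 5081. Without the second treated resistant library 3 also passed (EIF2AK1, EIF2AK2 and TRIB3), and the count over all genes there is not given here. At an unadjusted p under 0.05, 6 of 10 were higher and 0 lower, against 42.9% and 0.253% of genes. Of the members, 3 were higher without the third treated parental or the first untreated resistant library, where the share of all genes was not counted. By limma on log2 covered bases 6 of 10 were called higher (EIF2AK2, TRIB3, ATF4, DDIT3, CHAC1 and EIF2AK4), against 36.3% of genes. The members together covered 0.0616% to 0.0703% of the bases of each list.

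TRIB3 and EIF2AK2 stood highest in this order. TRIB3 had 1591, 1312 and 734 bp covered in untreated parental, 841, 981 and 971 bp in treated parental, 2831, 1522 and 2965 bp in untreated resistant and 2283, 1339 and 1513 bp in treated resistant libraries. The difference was 1004 bp (log2 0.89, 89.8th percentile; exact permutation p = 0.01, adjusted p = 0.0527), and the untreated groups overlapped. EIF2AK2 had a log2 of 0.81 (86.5th percentile, exact permutation p = 0.01, adjusted p = 0.0527). The TRIB3 value depended on which peaks were counted. Among peaks 124 bp wide or more it was 1064 bp (adjusted exact permutation p = 0.0378), with a 1-kb flank 907 bp (0.0442), with equal numbers of peaks 364 bp (0.120), and among peaks whose -log10 q was 3 or more 178 bp, with an unadjusted exact permutation p = 0.31 and an adjusted p = 0.346. EIF2AK2 passed under 3 of these, at 493 bp for the wider peaks (adjusted exact permutation p = 0.0469) and 418 bp for a -log10 q of 3 or more (0.0364).

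Scaled to the covered bases of each library, the median log2 over all genes was -0.01. On this scale TRIB3 stood at 0.46 (exact permutation p = 0.035) and EIF2AK2 at 0.45 (exact permutation p = 0.045), against 10.1% of genes higher at an unadjusted p under 0.05. EIF2AK3 was the 1 member lower, at -0.43 (exact permutation p = 0.015), against 11.2% of genes. Its direction was not stable: unscaled it differed by 52.7 bp (exact permutation p = 0.86), and among peaks whose -log10 q was 3 or more it was higher in resistant cells by 474 bp (exact permutation p = 0.02, adjusted p = 0.0482). The other 7 members lay between -0.15 and 0.02 with exact permutation p of 0.28 or more. The lowest adjusted p of a member on this scale was 0.142, at EIF2AK3. EIF2AK3 (chr2:88556741-88628145) had 1976, 2746 and 2249 bp in untreated parental, 1867, 2390 and 1960 bp in treated parental, 3013, 1855 and 1997 bp in untreated resistant and 2302, 1633 and 2704 bp in treated resistant libraries. The groups overlapped throughout, while the covered bases of the libraries as a whole did not stay level. Its start peak, shared with the divergent transcript EIF2AK3-DT, was among the strongest of each list, with a rank of 0.589% to 2.7%.

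**Figure D3:**
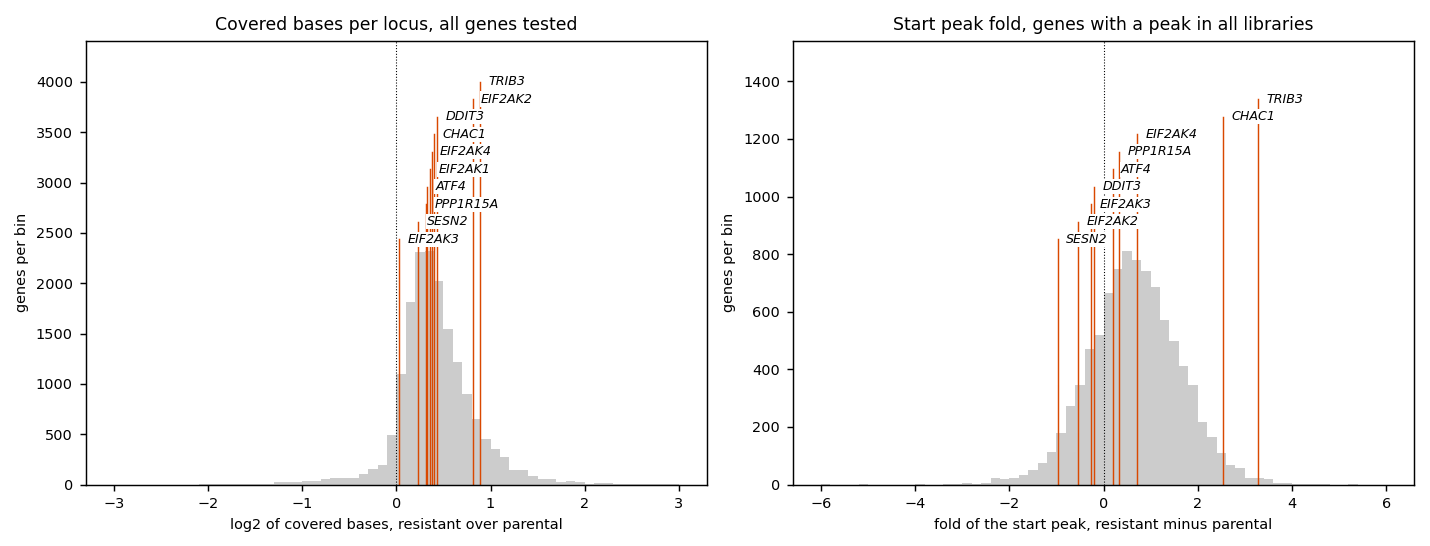
Members (orange lines) against all genes tested (grey, genes per bin; values past an end of the axis are put in its last bin): left, log2 of mean covered bases per locus, resistant over parental; right, difference in the fold of the start peak, resistant minus parental. TRIB3 and EIF2AK2 stand right of the other members on the left, TRIB3 (3.27) and CHAC1 (2.53) on the right.

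Oxamate went with fewer covered bases at the member loci in parental cells. In 6 of 10 members the 3 treated parental libraries lay below the 3 untreated ones (EIF2AK2, EIF2AK4, ATF4, DDIT3, CHAC1 and SESN2), against 36.0% of genes, and in 0 above, against 0.448%. In resistant cells this was so for 2 members, EIF2AK1 and PPP1R15A, against 4.99% of genes, and 0 were higher, against 1.14%. With 3 against 3 libraries the exact test cannot give a p below 0.1. Peaks covered 17.2 ± 2.97 Mb in treated and 23.7 ± 2.64 Mb in untreated parental libraries (SD, n = 3 each), so the lists as a whole moved the same way. Over both cell types 3 members were lower on treatment at an unadjusted exact permutation p under 0.05 (EIF2AK1, EIF2AK2 and DDIT3), against 15.0% of genes, and 0 were higher, against 0.0648%. That count of 3 was 6 without the second untreated resistant library and 5 without the third untreated parental or the third treated resistant one. Shares of all genes were not counted with a library left out. The lowest adjusted p of a member was 0.276. The difference between the responses of parental and resistant cells was tested as an interaction and passed in 0 of 10 members at an unadjusted exact permutation p under 0.05, against 4.29% of genes above 0 and 0.218% below. It passed above 0 in 2 members among peaks whose -log10 q was 3 or more, in 2 with a 1-kb flank, in 1 with equal numbers of peaks, in 2 without the second treated resistant library and in 1 without the first untreated resistant one. Shares of all genes under these settings were not counted, so these counts cannot be set apart from a shift over all genes.

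ATF4 (chr22:39520559-39522686) had 2063, 2487 and 2149 bp covered in untreated parental libraries and 1368, 1663 and 1580 bp in treated ones. Resistant libraries had 2668, 2447 and 2120 bp untreated and 2502, 1929 and 2671 bp treated. The treated parental libraries were the lowest 3, and the other groups overlapped. Part of this lay in a second region called in 12 libraries just after the gene (chr22:39522736-39523718), which covered 534 bp on average in parental and 905 bp in resistant libraries. The start peak of ATF4 had a fold of 4.81 ± 0.596 in parental and 5.00 ± 0.607 in resistant libraries (SD, n = 6 each), a difference of 0.19 with an exact permutation p = 0.61. DDIT3 had 3620, 2216 and 2926 bp in untreated parental, 1321, 2169 and 1642 bp in treated parental, 3817, 3299 and 3330 bp in untreated resistant and 3733, 2227 and 2542 bp in treated resistant libraries. Treated parental libraries were again the lowest 3, and how many of all genes show this order was not counted. The DDIT3 start peak had a fold of 4.06 in parental and 3.86 in resistant libraries (exact permutation p = 0.48).

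EIF2AK4 (chr15:39934115-40035591) showed the fall on oxamate at its start peak, whose width was 1070, 1212 and 741 bp in untreated parental and 405, 614 and 487 bp in treated parental libraries. The 6 resistant libraries lay between 1102 and 1301 bp. Its fold was 7.62 ± 0.423 untreated and 6.57 ± 0.362 treated in parental, and 7.61 ± 0.454 untreated and 8.03 ± 0.533 treated in resistant libraries (SD, n = 3 each). The interaction for this fold had an exact permutation p = 0.03 and an adjusted p = 0.261, so that 1 of 9 members passed without adjustment, against 16.7% of genes above 0 and 0.022% below. The start of SRP14 made up 40.2% of the bases covered in the EIF2AK4 window. At CHAC1, covered bases were 811 ± 33.3 in untreated and 576 ± 33.6 in treated parental libraries, and 942 ± 215 and 944 ± 151 in resistant ones (SD, n = 3 each). The fold of the start peak was lower without overlap in treated than in untreated parental libraries at 3 of 9 members (CHAC1, EIF2AK3 and EIF2AK4), against 44.8% of genes, and higher at 0, against 0.341%. In resistant cells it was higher at 1 member, PPP1R15A, against 5.33% of genes, and lower at 0, against 1.48%.

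SESN2 (chr1:28259518-28282491), a stress-induced regulator of mTORC1, had 1938, 2022 and 1097 bp covered in untreated and 678, 740 and 974 bp in treated parental libraries. Its resistant libraries were spread from 653 to 2157 bp. A region after the gene (chr1:28287389-28287734) was called in 4 resistant and 0 parental libraries, too few to be tested. Its peaks were near the lower limit of the lists, with a -log10 q of 1.17 to 2.45 and a rank of 75.6% to 98.6%. The share of all regions with such a split was not counted. EIF2AK1 (chr7:6022247-6059175) had 746 ± 103 bp in treated parental, 1109 ± 312 bp in untreated parental, 1411 ± 64.7 bp in untreated resistant and 1019 ± 201 bp in treated resistant libraries (SD, n = 3 each). A region at the higher end of its span (chr7:6058364-6059489) was called in 12 libraries and held 71.7% of these bases. PPP1R15A (chr19:48872421-48876058), the subunit that directs a phosphatase to eIF2, had 1357 ± 502 and 1155 ± 292 bp in untreated and treated parental and 1869 ± 370 and 1311 ± 101 bp in untreated and treated resistant libraries (SD, n = 3 each). Its start peak had a fold of 4.99 in parental and 5.32 in resistant libraries (exact permutation p = 0.51).

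**Figure D4:**
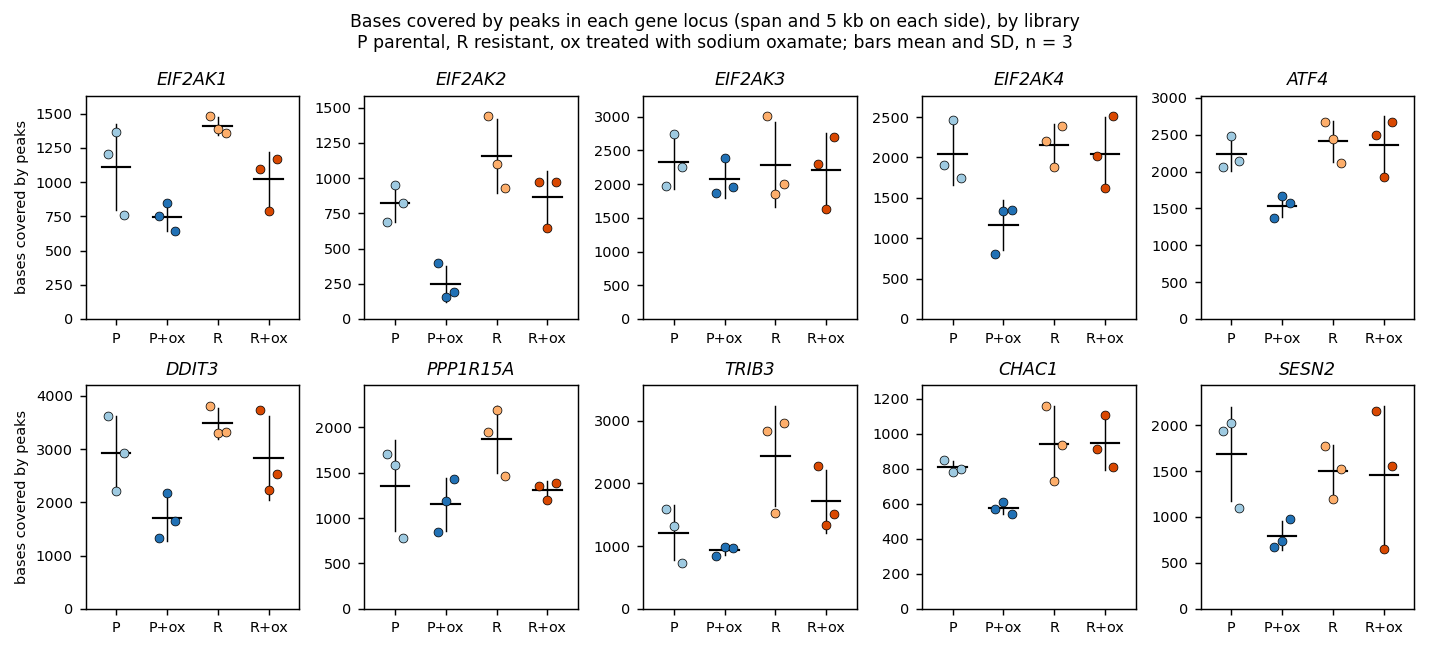
Bases covered by peaks in each member's window, 1 point per library, with the mean and SD of each group (n = 3); the vertical axes start at 0. Treated parental libraries are the lowest 3 of 12 at EIF2AK2, EIF2AK4, ATF4, DDIT3 and CHAC1, while EIF2AK3 overlaps in all groups. The share of all genes in this order was not counted.

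Resistant and parental cells were also compared within each treatment. Among untreated cells 0 of 10 members were higher without overlap, against 18.2% of genes, and 0 were lower, against 0.831%. Among treated cells 6 were higher (EIF2AK2, EIF2AK4, ATF4, DDIT3, TRIB3 and CHAC1), against 50.3% of genes, and 0 were lower, against 0.742%. These comparisons share libraries with those above and are not independent of them.

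Of the other 51 pathway genes, chosen in the same way, 18 were higher in resistant cells at an unadjusted exact permutation p under 0.05, and 0 were lower. Over all genes 42.9% were higher and 0.253% lower. The median log2 was 0.32, against 0.38 over all genes. After adjustment 7 were higher, against 11.8% of genes. The 18 ATF4 target genes outside the members had 12 of these, and 5 passed adjustment, against the same shares of 42.9% and 11.8%, with a median log2 of 0.60, or 0.24 after scaling to the library. The 9 genes of eIF2 and its exchange factor had 2, with a median of 0.16, the 8 of the phosphatase and its regulators 1, the 2 of the mitochondrial relay 0, the 6 partner transcription factors 2, and the 8 other genes of the unfolded protein response 1. SLC7A1, a carrier of cationic amino acids, had 1788 bp covered in parental and 3345 bp in resistant libraries. SLC3A2, the heavy chain of amino acid exchangers, had 3720 and 5270 bp, and VEGFA, an angiogenic growth factor, 1463 and 2948 bp (each exact permutation p = 0.005, adjusted p = 0.0422, the lowest over all genes). These 3 had the largest differences among 7 genes tied at that p. The 3 lowest p in the other direction were at DDIT4 (1658 and 1452 bp, p = 0.325 by the same exact test), HSPA5 (2655 and 2524 bp) and CTH (1499 and 1377 bp), and none passed. Scaled to the covered bases of each library, the log2 was 0.48 at SLC7A1, 0.06 at SLC3A2 and 0.57 at VEGFA (exact permutation p = 0.02, 0.41 and 0.01). At DDIT4, HSPA5 and CTH it was -0.57, -0.52 and -0.50 (exact permutation p = 0.02, 0.02 and 0.015). At an unadjusted p under 0.05 on this scale, 10.1% of genes were higher and 11.2% lower. By the fold of the start peak, 5 of the 39 other pathway genes measured were higher at an unadjusted exact permutation p under 0.05 (HSPA5, JDP2, IMPACT, CEBPG and ATF5) and 1 lower (DDIT4), against 31.5% and 3.91% of genes, with a median difference of 0.307 against 0.644 over all genes. These 6 are named because they are few, after their values were seen.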

How the data were processed

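ATAC-seq peaks were examined in 12 libraries of MIAPaCa2 cells, 3 in each of 4 groups taken from the sample titles. According to the study's methods, reads were aligned with Bowtie2 (2.1.0 per the labels), mitochondrial, duplicate and non-unique reads were removed, and the authors called peaks with MACS2 in paired-end mode for each library. The MACS2 version is not given in the sources used here. The deposited lists (hg38) give each peak its position, the authors' score, the authors' fold over background (a ratio), the authors' -log10 p-value and the authors' -log10 q-value, the smallest being 1.00. They hold no read counts, so depth is known only in relative terms, from the background that fold and p-value imply (largest misfit in -log10 p 1.13e-05), and no counting intervals are given. Peaks on other contigs (0.892%) were left out.

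The members and gene lists were chosen with earlier results of these data known. Bases covered by peaks per locus were compared over genes with a peak in at least 3 libraries (16974) by two-sided exact permutation of library labels within strata (400 assignments, smallest p 0.005), for phenotype, treatment and their interaction, with Benjamini-Hochberg adjustment over all genes. An adjusted p under 0.05 is thus reached only where many genes share the smallest p. Groups of 3 were compared by whether they overlap. Width of the start peak (10007 genes) was tested alike, and region presence by Fisher's exact test. Fold, rank and -log10 q of the start peak (9098 genes) were added after their values were seen. Named genes were the 10 members and, of the other pathway genes, the 3 with the lowest phenotype p in each direction; ties were broken by the size of the difference, after values were seen, and genes that passed by start-peak fold were also named. Gene spans, symbols and promoters are from RefSeq (GRCh38). The tests were tested on simulated data. Python 3.11.15, numpy 2.4.6, scipy 1.17.1 and limma 3.58.1 (log2 of covered bases plus 100) were used. Alternatives were other peak thresholds and widths, equal numbers of peaks, scaling to library totals, a 1-kb flank, all gene types, limma, leaving out single libraries, and a block for the replicate number.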

Additional observations from a re-analysis of the deposited data

How the results depend on the processing

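The count of members called by phenotype on covered bases was 0, and it was 3 for peaks whose -log10 q was 3 or more, 2 for peaks 124 bp wide or more, 1 with equal numbers of peaks, 1 with a 1-kb flank and 6 by limma. The genes called went from 2013 to 6403, 3544 and 5006 under the first 3 of these, 6212 by limma, and 0 with scaling, with all gene types or with the replicate block, whose smallest p is 0.03125. The block left 0 members and 0 genes called for the width of the start peak, against 2 and 2264. Correlations between same-numbered libraries were -0.173 to 0.189 over 12 pairs, and -0.184 to 0.157 over 24 pairs with other numbers. Between treated and untreated libraries, the same-numbered ones were all above 0, at 0.00599, 0.0225 and 0.0566 in parental and 0.135, 0.189 and 0.0535 in resistant cells. The numbers were not taken to pair the libraries, and the block is given as an alternative. Dividing the width of the start peak by the smallest width of its list gave 1 member and 1185 genes. That member was EIF2AK3, narrower in resistant cells on this scale, and neither EIF2AK2 nor TRIB3 was called. The window extended by 500 bases gave 1 member, EIF2AK2. For treatment limma called 48 genes, and for region presence 307 regions were called at a -log10 q of 3 or more, against 0 in each. Of the members without overlap, those lower on treatment went from 2 to 1 in resistant cells under the -log10 q limit, equal numbers of peaks, scaling and the 1-kb flank, and from 6 to 1 in parental cells with scaling. Those higher in resistant cells went from 0 to 1 untreated under the -log10 q limit, the width limit and the 1-kb flank. In treated cells scaling left 1 higher, from 6, and 2 lower, from 0. Shares of all genes without overlap were not counted under these alternatives, so the member counts have no background here.

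Signs turned for covered bases at SESN2 (-40.8 bp with equal numbers of peaks, -152 bp scaled), EIF2AK3 (-20.8 bp, -709 bp, and -63.5 bp with a 1-kb flank), and, scaled, at EIF2AK1 (-32.7 bp), PPP1R15A (-86.2 bp) and ATF4 (-137 bp). Start widths divided by the smallest width turned at EIF2AK3 (-258 bp), DDIT3 (-101 bp), CHAC1 (-137 bp), PPP1R15A (-175 bp), TRIB3 (-0.99 bp) and ATF4 (-41.7 bp). Folds divided by the library median turned at EIF2AK4 (-0.0905), PPP1R15A (-0.237) and ATF4 (-0.383). The cause was not tested.

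Leaving out 1 library gave 0 to 3 members (3 without the second untreated or second treated resistant library) and 0 to 5081 genes called on covered bases, and 0 to 3 members and 0 to 2350 genes on start width. Members without overlap numbered 2 to 4 for lower on treatment in resistant cells and, untreated, 0 to 3 for higher and 0 to 1 for lower in resistant cells. For these too the shares of all genes were not counted. The range crossed 0 for covered bases at EIF2AK3 (-129 to 198 bp), start width at PPP1R15A (-22.5 to 217 bp), fold at DDIT3 (-0.332 to 0.015) and ATF4 (-0.0379 to 0.453), and rank at DDIT3 (-4.96 to 3.34), EIF2AK4 (-2.05 to 0.32) and PPP1R15A (-2.79 to 0.16). Folds stayed between 3.01 and 3.55 at TRIB3 and between 2.27 and 2.77 at CHAC1. These 2 members kept their direction for fold and rank in every alternative of those measures in which they were tested. TRIB3 was not among the genes tested in the windows without extension. With the replicate block the exact permutation p for fold was 0.03125 at TRIB3 and 0.0625 at CHAC1. Peak lists without counts limit what can be said of levels within a peak.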
